A study of Mus musculus with 24 samples.

Results

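Kdm5c is 1 of the 2372 genes in the deposited liver table. It was followed because it was a target of the injected hairpin vectors, and its row was found by its symbol (gene ID 20591). The gene lies on chromosome X, from 152233198 to 152279102 of GRCm38.p6. The 24 libraries came from mouse livers, 12 labelled female and 12 labelled male, and each mouse had been on the Lieber-DeCarli liquid alcohol diet for 3 weeks. Every mouse received adeno-associated virus (AAV) vectors in both injections, so the study holds no uninjected mouse and no mouse without alcohol. The first injection was AAV-shControl, a control hairpin, or AAV-shKdm5b together with AAV-shKdm5c, called the Kdm5 vectors here. The second was AAV-shControl or AAV-shAhR, a hairpin against the aryl hydrocarbon receptor, called the AhR vector here. Sex and both injections form 8 groups of 3 libraries: control vectors alone, Kdm5 vectors, AhR vector, and both sets, in each sex. The labels state no strain, age, vector serotype, promoter or dose, and not in which cell type the hairpins were expressed. The labels give every library its own number but do not state outright that each is a separate animal. Each library is counted as 1 mouse below, and the p-values measure the spread between these libraries.

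KDM5C is a demethylase that removes methyl groups from lysine 4 of histone H3, a mark of active promoters and enhancers, and it usually acts as a repressor. Kdm5c escapes X inactivation in the mouse, so female cells transcribe it from both X chromosomes. Males have a single copy and a diverged paralog on the Y chromosome, Kdm5d. A short hairpin RNA is processed to a small RNA that guides degradation of the matching transcript, and the transcript that is left over is the residual expression.

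Kdm5c could be told apart from its relatives at the level of sequence. Its longest annotated coding sequence has 4662 bases and that of Kdm5d has 4644, and 77.4% of the 4590 bases that align are identical (GENCODE M21, GRCm38). The longest stretch that both share without a difference is 35 bases. It is printed here with 30 bases on either side, because it is the longest run in which the X and Y copies are identical. Both sequences are in the sense of the mRNA, and capitals mark the 11 bases that differ.
Kdm5c: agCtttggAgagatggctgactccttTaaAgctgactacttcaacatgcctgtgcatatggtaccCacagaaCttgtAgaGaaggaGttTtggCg
Kdm5d: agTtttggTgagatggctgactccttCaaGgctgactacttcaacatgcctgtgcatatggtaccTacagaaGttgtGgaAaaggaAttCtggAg
Of the 4613 windows of 50 bases in the Kdm5c coding sequence, 0 occur in an annotated transcript of any other gene, and the same holds for its 4563 windows of 100 bases. The read length is not given in the sources used here. No other gene of that annotation overlaps the Kdm5c locus on either strand, so the missing statement on strand does not touch this gene.

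Values are FPKM, the fragments of a gene per length of its transcript and per mapped fragment of the library. Kdm5c lay below the table's median level in every library. It stood above 36.4% to 44.3% of the table's genes in female libraries and above 29.4% to 38.5% in male libraries. The table gives no read depth, so counting error cannot be stated. The values of the table's genes summed to between 281871 and 326460 in females and between 380206 and 429780 in males. Hepatocyte markers were abundant: the 7 of 12 in the table summed to between 16714 and 25687 FPKM in every library, which fits the labelled tissue. Markers of macrophages, endothelium and stellate cells were also detected in every library, so each value below is a mixture of cell types. Fewer cells of a type and less RNA per cell cannot be told apart in such bulk samples.

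Without the AhR vector, male livers held less Kdm5c when the Kdm5 vectors had been injected. The 3 males with control vectors had 6.39, 6.80 and 7.21 FPKM. The 3 males with the Kdm5 vectors had 4.89, 4.64 and 5.89 FPKM. All 3 treated males lay below all 3 controls, and the treated mean was 75.6% of the control mean. The log2 fold change was -0.38 ± 0.11 (SE; 95% interval -0.61 to -0.15), which did not pass over the table (adjusted p = 0.139, limma with Benjamini-Hochberg adjustment over 2299 genes). All fold changes are on the log2(FPKM + 0.5) scale, where the added 0.5 shrinks the fold of weakly expressed genes. In this comparison 0.174% of the genes passed as lower and 5.09% had a treated group entirely below its control group.

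With the AhR vector, Kdm5c also fell in males, and this was the only one of the 4 strata formed by sex and AhR vector in which it passed. The males given the AhR vector alone had 6.92, 7.69 and 7.81 FPKM, and those given both sets had 5.11, 5.36 and 4.86 FPKM. The groups did not overlap, and the mean with both sets was 68.4% of the mean with the AhR vector alone. Kdm5c fell by 0.51 ± 0.11 on the log2 scale (interval of the fold change -0.74 to -0.28; adjusted p = 0.0124, limma). In the same comparison 2.35% of genes passed as lower and 18.3% had groups that did not overlap, so lack of overlap by itself was common there. The call was lost without the second male of the AhR group (adjusted p = 0.0508) and without the third male of the group given both (adjusted p = 0.0683), both in limma. It was also lost when the 6 libraries were fitted alone (adjusted p = 0.099) or when libraries were scaled by the other X-linked genes (-0.37, adjusted p = 0.0874, limma).

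In females without the AhR vector, Kdm5c differed little with the Kdm5 vectors. The control females had 11.07, 9.32 and 10.6 FPKM and the treated females 9.94, 9.90 and 9.05 FPKM. The ranges overlapped, because 1 control female lay below 2 of the treated ones. The treated mean was 93.2% of the control mean, and the log2 fold change was -0.09 ± 0.11 with an interval from -0.32 to 0.13 (adjusted p = 0.66, limma). Leaving out 1 library moved it between -0.16, without the second control female, and -0.04, without the first. Taken as a ratio on the same scale, the interval reaches from 79.9% to 110% of control. A reduction to 77.0%, the point estimate on that scale in males without the AhR vector, lies just outside it. The interval of that male value, 65.7% to 90.3%, overlaps the female one, and the reduction was not compared between the sexes in this stratum. In this comparison 3.48% of genes passed as lower.

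In females with the AhR vector, the Kdm5 vectors went with a lower mean and a wide spread. Females given the AhR vector alone had 13.07, 12.93 and 12.03 FPKM. Those given both sets had 10.2, 12.46 and 9.37 FPKM. Of these, 2 lay below every female of the AhR group, and the third lay inside that group's range. The treated mean was 84.2% of the other, and the log2 fold change of -0.25 ± 0.11 (-0.48 to -0.02) did not pass (adjusted p = 0.29, limma). Without the third of the females given both sets the value was -0.16, and without the second it was -0.36. Here 0.174% of genes passed as lower, and 6.96% had groups that did not overlap downwards. The coefficient of variation was 15.0% in the group given both sets, the highest of the 8 groups, against 4.45% in the AhR group, the lowest.

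**Figure D1:**
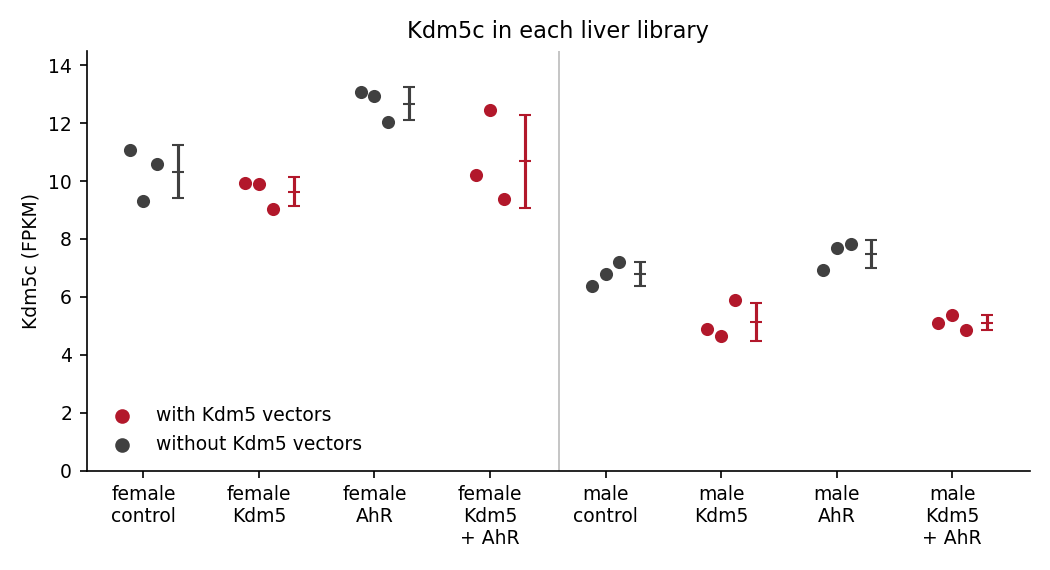
Kdm5c in FPKM (y axis) for each of the 24 libraries by group (x axis), with the group mean and SD (n = 3) beside the points and groups with the Kdm5 vectors in red. The male groups with the Kdm5 vectors lie below the male groups without them, while in females each group with the Kdm5 vectors overlaps the group without them in its stratum, and every female library lies above every male library.

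Over both male strata Kdm5c fell by 0.44 ± 0.08 log2 (adjusted p = 0.00215, limma), with an interval of the fold change from -0.60 to -0.28, or 65.8% to 82.4% of the level without the Kdm5 vectors. All 6 males with the Kdm5 vectors lay below all males without them in their stratum. The exact two-sided permutation test over these 12 libraries, with labels exchanged within strata, gave p = 0.005, the smallest it can give. Over both female strata the log2 fold change was -0.17 ± 0.08 (interval -0.33 to -0.01), which did not pass (adjusted p = 0.169, limma). The exact permutation p for the 12 females was 0.06. Over all 4 strata Kdm5c fell by 0.31 ± 0.05 log2 (adjusted p = 0.00343, limma), with an exact permutation p of 0.000175 over 160000 regroupings. That leaves 80.9% of the level without the Kdm5 vectors, with an interval from 74.7% to 87.6%. The fold change kept its sign in all 4 strata, and the call passed in each of 24 fits that left out 1 library.

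Among the 2299 tested genes, Kdm5c stood near the front over both male strata and over the 4 strata, though not at it. How the genes of the deposited table were chosen is not stated. Ranks, shares and adjusted p-values therefore hold for that set of genes only. Over both male strata it ranked 16th of 2299 by p-value, counting changes in either direction. There 1.09% of genes passed as lower, and 2.52% had a lower log2 fold change than Kdm5c. In females 3.87% passed as lower, and Kdm5c was not among them. Over the 4 strata Kdm5c ranked 13th by p-value in either direction. In that comparison 2.74% of genes passed as lower, and 4.26% had a lower log2 fold change than Kdm5c. In males without and with the AhR vector 4.04% and 4.87% of genes had a lower log2 fold change than Kdm5c, and in females the shares were 38.7% and 10.0%. Lack of overlap downwards in both male strata was seen for 1.44% of genes, and in both female strata for 1.87%, without Kdm5c.

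**Figure D2:**
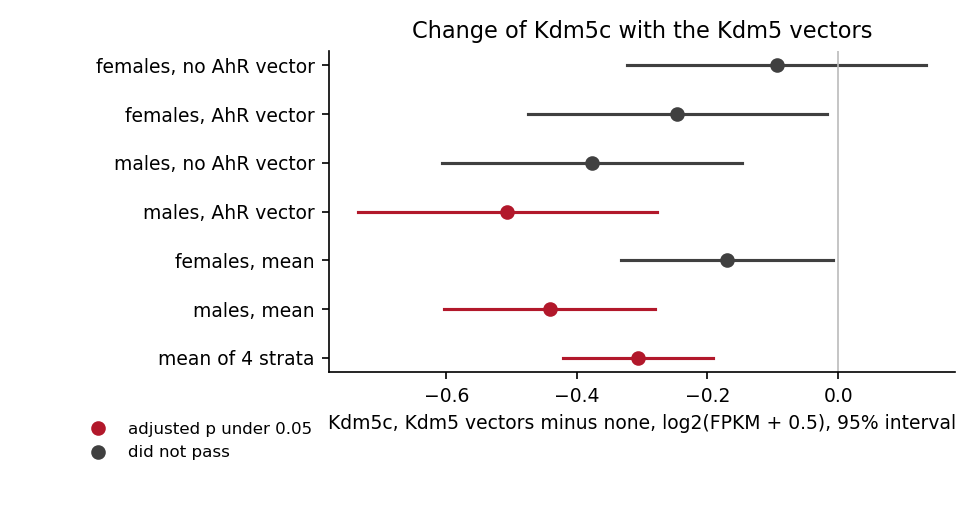
Log2 fold change of Kdm5c with the Kdm5 vectors (x axis, log2(FPKM + 0.5) scale) in each stratum, averaged by sex and over all 4 strata, with 95% intervals from limma. The male intervals and the mean of 4 strata exclude 0. So do those of the females with the AhR vector (-0.48 to -0.02) and of the female mean (-0.33 to -0.01), though neither passed. The interval of the females without the AhR vector, from -0.32 to 0.13, includes 0.

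**Figure D3:**
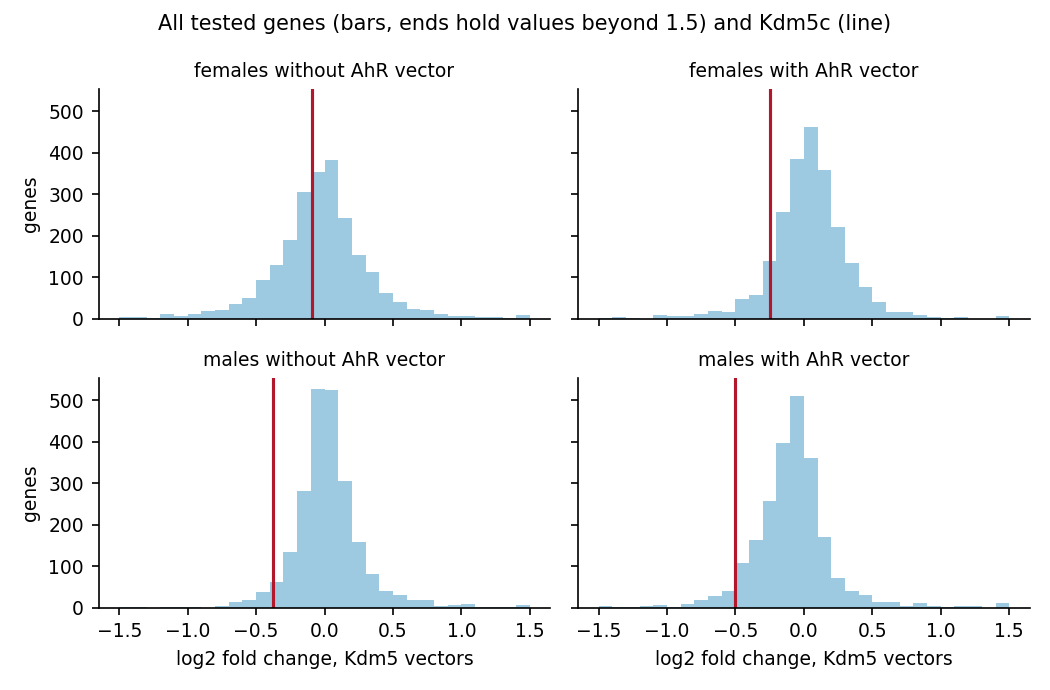
Histograms of the log2 fold change with the Kdm5 vectors over the 2299 tested genes (x axis; y axis, number of genes) in each stratum, with Kdm5c as a red line. Kdm5c lies in the lower tail in males, and 38.7% of genes lie below it in females without the AhR vector.

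The sexes were then compared directly for the size of the reduction. The Kdm5 vector effect was less negative in females by 0.27 ± 0.11 log2 (interval 0.04 to 0.50). The unadjusted p was 0.0226, and the difference did not pass over the table (adjusted p = 0.144, limma), where 5.31% of genes did. A larger reduction in males is therefore not established by these libraries, nor is an equal one.

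No change of this reduction with the AhR vector was detected. The effect of the Kdm5 vectors with the AhR vector differed from that without it by -0.15 ± 0.16 log2 in females (interval -0.48 to 0.17; adjusted p = 0.784, limma). In males the difference was -0.13 ± 0.16 (interval -0.45 to 0.19; adjusted p = 0.938, limma). Averaged over both sexes it was -0.14 ± 0.11 (interval -0.37 to 0.09; adjusted p = 0.859, limma). These intervals are wider than the reduction itself, so the comparison cannot tell whether the AhR vector changes it. In females, males and both sexes together, 0.609%, 1.61% and 0.739% of the table passed for this difference.

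The AhR vector by itself went with more Kdm5c in females, beyond the spread of those libraries but not past the threshold over the table. All 3 females with the AhR vector alone (12.03 to 13.07 FPKM) lay above all 3 females with control vectors (9.32 to 11.07 FPKM). The AhR mean was 123% of the control mean, with a log2 fold change of 0.29 ± 0.11 (interval 0.06 to 0.51; adjusted p = 0.274, limma). In that comparison 0.217% of genes passed as higher and 6.92% had groups that did not overlap upwards. In females that had the Kdm5 vectors, adding the AhR vector gave 0.13 ± 0.11 (adjusted p = 0.522, limma) with overlapping groups, where 1.83% of genes passed as higher and 17.6% had groups that did not overlap upwards. Over both female strata the exact permutation p was 0.02. In males the log2 fold changes were 0.13 ± 0.11 without and 0.00 ± 0.11 with the Kdm5 vectors (adjusted p = 0.68 and 0.998, limma), and the exact permutation p over both strata was 0.345. Over all 24 libraries the mean difference was 0.14 log2, with an exact permutation p of 0.0129. The comparisons of the AhR vector and of the Kdm5 vectors in females share their 3 control libraries.

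In every vector setting the females had more Kdm5c than the males. The 12 female libraries ran from 9.05 to 13.07 FPKM (median 10.4) and the 12 male libraries from 4.64 to 7.81 (median 6.14). Every female, with or without the Kdm5 vectors, thus had more Kdm5c than every male, which holds for 9% of the tested genes. With control vectors the female mean was 152% of the male mean, 10.3 ± 0.906 against 6.80 ± 0.41 FPKM (SD, n = 3 each), and 30.8% of genes passed as higher in females, while 34% had all 3 females above all 3 males. With the Kdm5 vectors it was 187%, 9.63 ± 0.503 against 5.14 ± 0.661 FPKM, and 24.8% of genes passed against 33.2% without overlap. With the AhR vector it was 170%, 12.7 ± 0.564 against 7.47 ± 0.483 FPKM, and 24.6% of genes passed against 28.7% without overlap. With both sets it was 209%, 10.7 ± 1.6 against 5.11 ± 0.25 FPKM, and 38% of genes passed against 40.3% without overlap. In log2 these differences were 0.57, 0.85, 0.73 and 0.99, each ± 0.11, with adjusted p of 0.00037, 6.2e-06, 4.1e-05 and 6.5e-07 in limma. The exact permutation p over the 24 libraries was 1.25e-05, the smallest it can give.

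The order of the 8 group means ran from males with both sets (5.11 FPKM) and males with the Kdm5 vectors (5.14), which do not differ beyond their spread, through control males (6.80) and AhR males (7.47), whose ranges overlap. Females with the Kdm5 vectors (9.63), control females (10.3) and females with both sets (10.7) came next and overlapped with each other. Females with the AhR vector alone stood highest (12.7) and overlapped with those given both sets.

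Kdm5d, the Y-linked paralog, did not pass in either male stratum. In control males Kdm5d measured 1.88 ± 0.332 FPKM (SD, n = 3), in males with the Kdm5 vectors 2.12 ± 0.219, in AhR males 2.02 ± 0.296 and in males with both sets 1.82 ± 0.13. Its log2 fold change with the Kdm5 vectors was 0.14 ± 0.14 without and -0.11 ± 0.14 with the AhR vector (adjusted p = 0.869 and 0.778, limma). In females it lay between 0 and 0.12 FPKM, which is the level read from a gene these mice lack. The X and Y copies together came to 8.46 to 8.88 FPKM in control males, against 9.32 to 11.09 FPKM in control females. With the Kdm5 vectors the sums were 6.57 to 8.25 FPKM in males and 9.05 to 9.96 in females, so the groups stayed apart when Kdm5d was counted. The sums are a description and were not tested.

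**Figure D4:**
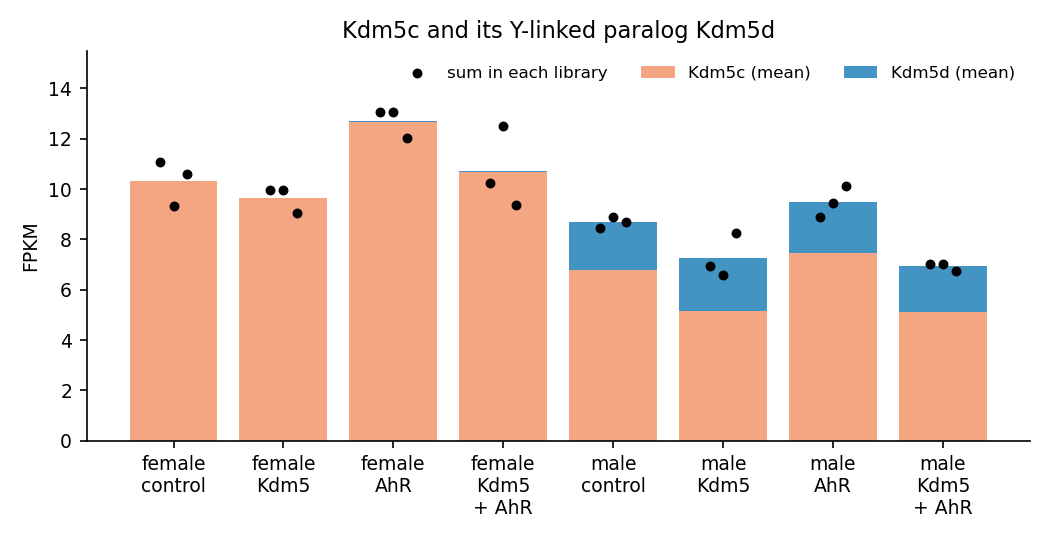
Mean Kdm5c (orange) and Kdm5d (blue) in FPKM (y axis) by group (x axis), stacked, with the sum in each library as points. In males Kdm5d adds between 1.82 and 2.12 FPKM on average, and the male sums with control vectors (8.46 to 8.88) stay below the female ones (9.32 to 11.09).

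Other X-linked genes that are known to escape inactivation were also higher in females with control vectors. Of 13 such genes listed beside Kdm5c, 4 were in the table, and 3 passed as higher, as did 30.8% of all genes. Kdm6a, an H3 lysine 27 demethylase gene, was higher by 0.83 ± 0.16 log2, the RNA helicase gene Ddx3x by 0.81 ± 0.11 and the translation initiation factor gene Eif2s3x by 0.76 ± 0.09 (adjusted p = 0.00039, 9.0e-06 and 2.0e-06, limma). The deubiquitinase gene Usp9x had 0.19 ± 0.09 and did not pass (adjusted p = 0.111, limma). Their Y-linked counterparts Uty, Ddx3y and Eif2s3y, with Kdm5d, were the 4 of 8 listed Y-linked genes in the table, and all 4 were lower in females (-2.34, -4.31, -4.78 and -2.22 log2), where 11.6% of all genes were. With the Y copy counted, the control sums were 3.08 to 4.40 FPKM in females and 3.59 to 5.07 in males for Kdm6a with Uty. For Ddx3x with Ddx3y they were 51.2 to 54.1 and 32.2 to 46.1. For Eif2s3x with Eif2s3y they were 44.4 to 48.1 and 38.3 to 49.4. Only the sums of Kdm5c with Kdm5d and of Ddx3x with Ddx3y did not overlap between the sexes.

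Many X-linked genes shared the direction of this sex difference. Of 61 other X-linked genes tested, 32 passed as higher in females with control vectors and 5 as lower, with a median of 0.40 log2 against 0.15 over all tested genes. Kdm5c stood 23rd from the top of the 62. Scaled by the other X-linked genes, its difference was 0.14 log2 and did not pass (adjusted p = 0.272, limma). That scaling left the differences in the other 3 vector settings at 0.60, 0.43 and 0.50 log2, and all of them passed. The sign was the same under each scaling tried, from 0.14 to 0.65 log2 with control vectors. The median of all genes moved with the scaling, from 0.15 log2 as deposited to 0.00 by median of ratios, 0.24 without the Mup genes and -0.28 by the X-linked genes. The split of 709 genes higher and 267 lower in control females became 491 and 489, 921 and 211, and 291 and 1067.

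**Figure D5:**
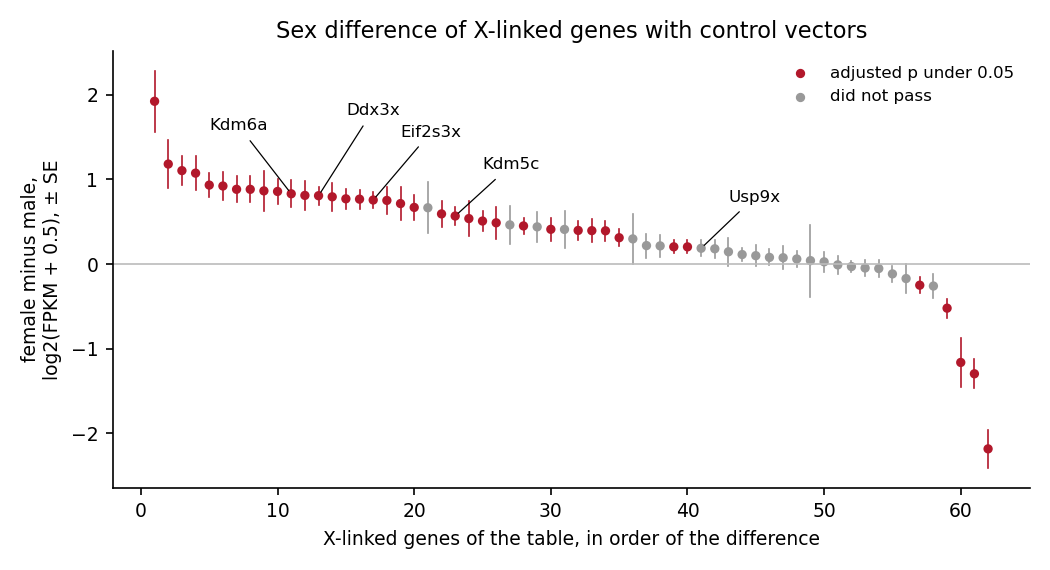
Female minus male difference with control vectors on the log2(FPKM + 0.5) scale (y axis, ± SE) for Kdm5c and 61 other X-linked genes in order of the difference (x axis), with genes that passed in red. Kdm5c lies 23rd from the top, after Kdm6a, Ddx3x and Eif2s3x.

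With the Kdm5 vectors the X-linked genes as a group stayed near the median of all genes. The 61 others had median log2 fold changes of -0.05 and 0.06 in females and 0.04 and -0.08 in males, without and with the AhR vector, against -0.02, 0.04, 0.01 and -0.08 over all genes. Of the 61, 4 passed as lower and 1 as higher in females without the AhR vector. In males 1 passed as higher without the AhR vector and 2 as lower with it. Kdm5c was the 29th lowest of 62 in females without the AhR vector and the third lowest with it, and in males the second lowest without and the third lowest with it. Among the escape genes, Ddx3x fell in females without the AhR vector, from 52.4 ± 1.48 to 39.6 ± 1.41 FPKM (-0.40 ± 0.11 log2, adjusted p = 0.0336, limma). In that comparison 3.48% of all genes passed as lower. Ddx3x values there were 51.14 to 54.01 FPKM with control vectors and 37.99 to 40.55 with the Kdm5 vectors. In males without the AhR vector Ddx3x stood at 0.25 ± 0.11 and did not pass (adjusted p = 0.427, limma). Ddx3x and Kdm5c thus differed in which sex they passed in, though the difference between the genes was not tested. Of the genes that neighbour Kdm5c on the chromosome, 2 of 14 listed were in the table. The ubiquitin ligase gene Huwe1 fell in males with the AhR vector (-0.37 ± 0.10, adjusted p = 0.047, limma), where 2.35% of all genes passed as lower. The mitochondrial dehydrogenase gene Hsd17b10 did not pass in any stratum.

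Few genes listed for methylation of histone H3 lysines were in the table beside the KDM5 family, and none of them passed with the Kdm5 vectors. Of 25 genes listed as H3 lysine 4 methyltransferases and their subunits, 6 were in the table (Kmt2a, Kmt2c, Kmt2d, Setd1b, Ash1l and Hcfc1). None of the 6 passed in any of the 4 strata in limma. Of all genes, 6.87% and 0.696% passed in either direction in females and 1.22% and 3.26% in males, without and with the AhR vector, so 0 of 6 is near that background. The medians of the 6 genes were 0.04 and 0.09 log2 in females and 0.23 and -0.21 in males, without and with the AhR vector. The lowest was Kmt2d in males with the AhR vector, at -0.49 ± 0.14 (adjusted p = 0.0717, limma). Of 20 other H3 lysine demethylase genes, Kdm6a, Jmjd1c and Uty were in the table, and none passed in any stratum. Kdm6a had its lowest value in males with the AhR vector, -0.36 ± 0.16 (adjusted p = 0.26, limma). Of 20 listed partners of KDM5C in repressor complexes, Mga was in the table, with log2 fold changes from -0.06 to 0.08. Kdm5b, the other target of the vectors, and Kdm5a were not analysed here.

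In single strata, few markers of other liver cells passed with the Kdm5 vectors, and those that did rose where Kdm5c did not pass. All 7 tested Kupffer cell and macrophage markers lay below 0 with the Kdm5 vectors in males, and none passed. Of all genes, 0.174% and 2.35% passed as lower in males without and with the AhR vector, so 0 of 7 is near that background. Their medians were -0.27 and -0.23 log2 without and with the AhR vector, against 0.01 and -0.08 over all genes. Their summed level was 197 to 279 FPKM in control males, 189 to 213 with the Kdm5 vectors, 256 to 336 with the AhR vector and 196 to 295 with both sets. The 5 stellate cell markers had medians of -0.02 and -0.31 in males and of -0.18 and 0.21 in females, without and with the AhR vector. None of these 5 passed in a single stratum. The 8 endothelial markers had medians of 0.03 and -0.12 in males and 0.03 and 0.20 in females, and 2 of them, Lyve1 (0.75 ± 0.20, adjusted p = 0.0336, limma) and Gpr182 (0.62 ± 0.16, adjusted p = 0.0262, limma), rose in females without the AhR vector, where 3.39% of all genes did. In females the macrophage markers had medians of -0.11 and 0.12, and sums of 414 to 458 FPKM with control vectors and 385 to 428 with the Kdm5 vectors. Between the sexes, all 7 macrophage markers passed as higher in control females, with differences from 0.66 to 0.97 log2, as did 4 of 8 endothelial and 4 of 5 stellate markers and 30.8% of all genes. Hepatocyte markers had medians between -0.01 and 0.04 with the Kdm5 vectors in the 4 strata, and their summed level was 22561 to 24084 FPKM in control males and 23411 to 24395 with the Kdm5 vectors. In females that sum was 16714 to 20890 FPKM with control vectors and 18829 to 24550 with the Kdm5 vectors. Averaged over both female strata, 1 stellate, 2 endothelial and 1 hepatocyte marker passed as higher. There 215 of the 2299 tested genes passed in either direction. Over both male strata, where Kdm5c passed as lower, 1 hepatocyte marker passed as higher. The highest of the 7 stood at 0.35 log2, and 51 of all tested genes passed in either direction. Sox9 of 5 cholangiocyte markers (0.66 to 2.44 FPKM) and Ptprc of 7 lymphocyte markers (0.95 to 4.13 FPKM) were in the table, and the 5 neutrophil markers were not used here. The part of these cells in the values of Kdm5c was not tested.

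The genes whose pattern was most like that of Kdm5c were ranked by the smaller of 2 Pearson correlations, over the 12 female and over the 12 male libraries. All 12 libraries of a sex share their scaling and their vector groups, so these values are a description. The libraries include those with the Kdm5 vectors, so the vector differences given for these genes are part of what chose them and carry no test. The median of this measure over 2293 genes was -0.18, and 22 genes lay above 0.5. Ski, a corepressor of TGF beta signalling, came first, with r = 0.74 in females and 0.87 in males. Ski ran from 4.32 to 12.8 FPKM over the 24 libraries. In males it averaged 6.71 FPKM with control vectors, 5.25 with the Kdm5 vectors, 6.57 with the AhR vector and 4.56 with both sets. Its log2 fold changes with the Kdm5 vectors were -0.15 and -0.22 in females and -0.34 and -0.48 in males. Over the 4 strata its mean was -0.30 log2, beside -0.31 for Kdm5c. Next came the transcription factor gene Sall1 (0.80 and 0.70), the insulin receptor substrate gene Irs1 (0.79 and 0.68), the ectonucleotide pyrophosphatase gene Enpp1 (0.83 and 0.66), the integrin gene Itgav (0.78 and 0.64) and the cyclin gene Ccnd2 (0.63 and 0.73). Over the 4 strata the mean log2 fold changes of these 5 genes lay between -0.36 (Sall1) and -0.19 (Ccnd2). Among the patterns most opposite were those of the calcium-binding protein gene Pdcd6 (-0.81 and -0.60) and the carbonic anhydrase gene Car14 (-0.60 and -0.59).

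With the mean of each stratum of sex and AhR vector subtracted, the 24 libraries gave the highest correlations for Nfkbia, the inhibitor of NF-kB (r = 0.85), Ski (r = 0.84) and Wrnip1 (r = 0.83). Of 2293 genes, 59 lay above 0.5 and the median was 0.04. Within the sexes, r was 0.53 in females and 0.88 in males for Nfkbia, and 0.33 and 0.90 for Wrnip1. The subtraction leaves the Kdm5 vector differences in place, so those given for these genes are part of what chose them and carry no test. Nfkbia had a mean log2 fold change of -0.34 over the 4 strata and ran from 16.76 to 42.77 FPKM. Wrnip1 had a mean of -0.43 log2, and its female minus male difference with control vectors was -0.02 log2, beside 0.57 for Kdm5c.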

How the data were processed

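Liver RNA was extracted with a Qiagen kit and sequenced from standard BGI libraries, per the labels' protocols. The deposited table holds FPKM values, which the authors made with HISAT, Bowtie2 and GRCm38.p6, per the submitters' processing notes. No source here gives versions, read length, counting step, strand or how the 2372 genes were chosen. Libraries were grouped by sex and by both injections as labelled, and no 2 libraries held identical values.

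The filter kept the 2299 genes that reached 1 FPKM in 3 or more libraries and left out 73. log2(FPKM + 0.5) values were fitted with limma 3.58.1 in R 4.3.3 as 8 group means over all 24 libraries, with trend and robust moderation (16 residual degrees of freedom). The 19 contrasts were each adjusted by Benjamini-Hochberg over the 2299 genes, and passing means an adjusted p under 0.05. Intervals are 95%. Two-sided exact permutation tests exchanged labels within strata (Python 3.11.15, numpy 2.4.6); 3 libraries against 3 cannot go below p = 0.1, which both male strata reached, against 0.3 and 0.2 in females without and with the AhR vector. The fit was tested on simulated data, but the outcome is not given here and no result rests on it. Coding sequences from GENCODE M21 were aligned with Biopython 1.88, and the printed coordinates are those of RefSeq. Of 2372 genes, 2357 were matched to a chromosome, 69 of them on X. Gene likeness was ranked by correlation with Kdm5c, and the 6 highest and 3 lowest genes by the smaller correlation and the 3 highest with stratum means removed are named, except 1 that is not reported here. From the lists, every KDM5, escape and Y-linked gene in the table was named, and of the others those that passed with the Kdm5 vectors or lay at the ends of a list; not all of the last kind are printed.

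The member, the gene lists and the tests were chosen with earlier results of these data known. Alternatives were another scaling, pseudocount, low-value filter, weighting, moderation and set of samples, and leaving out each library.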

Additional observations from a re-analysis of the deposited data

How the results depend on the processing

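The fall of Kdm5c over both male strata and over all 4 strata passed under each of the alternatives run, leave-one-out included (-0.49 to -0.41 and -0.33 to -0.28 log2 over the fits without 1 library). Scaled by the other X-linked genes, the log2 fold change with the Kdm5 vectors was 0.00693 in females without the AhR vector, -0.4467 in males without it (now passing, adjusted p = 0.0461, limma) and -0.3675 in males with it (no longer passing). Under that scaling the change of the male effect with the AhR vector was 0.07919, the AhR vector effect with the Kdm5 vectors was -0.01938 in females and 0.08179 in males, and the female minus male difference with control vectors was 0.14398, which no longer passed. The male AhR vector effect with the Kdm5 vectors was 0.00251 by median of ratios and ran from -0.06601 to 0.09102 without 1 library; it is near 0 in all of them. The compared groups alone gave -0.50633 in males with the AhR vector, which did not pass with fewer samples, and leaving out 1 library gave -0.55731 to -0.47393. The cause of the other changes was not tested.

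With library weights the 158, 16, 28 and 75 genes passing for the Kdm5 vectors (females without and with the AhR vector, then males) became 331, 37, 66 and 179, and the 215, 51 and 120 over females, males and all strata became 399, 186 and 336. Without 1 library the first 4 counts ran from 23 to 279, 5 to 36, 0 to 14 and 35 to 65, with the lowest without the first female control, the third female given both sets, the first male with the Kdm5 vectors and the third male given both sets. The shares of all genes given beside the results move with these counts. The 122 genes for the difference between the sexes became 303. With the compared groups alone the counts were 1 and 0 in females, 24 in males with the AhR vector and 97 over females. Without the Mup genes in the total, 28 genes passed in females with the AhR vector. No paired analysis was possible because the labels carry no replicate number that links libraries across groups; the numbers used here only name libraries. The table gives FPKM without depth, so differences within the counting error cannot be recognised. In single strata, 3 libraries a group leave intervals about as wide as the larger effects and wider than the smaller ones.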
